A study of Mus musculus with 10 samples.

Results

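Cassette exons that add or remove a number of bases not divisible by 3 move the reading frame of everything downstream of them. Here, such exons of intermediate inclusion were described in islets of Langerhans of a pair of obese mouse strains. NZO mice (NZO/HiBomDife), which become diabetic, were compared with B6-ob/ob mice (C57BL/6J.V-Lepob/ob), which are obese through a mutation of the *Leptin* gene and stay non-diabetic. Each group held 5 male mice with 1 RNAseq library each. All mice received a carbohydrate-free, high-fat diet to 18 weeks of age and carbohydrates during the last 2 days before their islets were taken. The proportion spliced in (PSI) is the fraction of transcripts at an exon that hold it, and the deposited table has 1 PSI per strain, pooled over its mice. No spread between mice can therefore be given, no test of a strain difference was possible, and each PSI below is the authors' pooled value. Strain and diabetes cannot be told apart in this design, and reads of both strains were read against an annotation built on the C57BL/6J genome.

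The exons were chosen by measured values: cassette exons of over 30 nt, with a length not divisible by 3 and a mean PSI of both strains from 0.1 to 0.9. This gave 4318 exons in 2629 genes among 110932 tested cassette exons and 167895 splicing events of all types. They made up 6.47% of the 66738 frame-shifting cassette exons of that length, while 3419 exons of a length divisible by 3, called frame-preserving here, met the same PSI limits. At the lower limit, a 124 nt exon of *Ripk2* was just inside with a mean PSI of 0.1001 and a 77 nt exon of *Sbno1* just outside with 0.0998. At the upper limit, a 214 nt exon of *Adam19* was inside, its mean PSI equal to 0.9, and a 67 nt exon of *Gk* outside with 0.900015. The shortest length, 31 nt, was met by 16 exons, and 5 exons of 29 nt with intermediate inclusion were left out by length.

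The tissue labelled as pancreas carried the markers of islets. The mean normalized counts over all libraries were 6676910 for *Ins2*, 240204 for *Gcg* and 24410 for *Sst*, the hormones of beta, alpha and delta cells. The acinar markers reached at most 402 (*Ctrb1*), and *Prss1* was at 0. The endothelial marker *Plvap* was at 7678, and the ductal markers ranged from 30.1 (*Sox9*) and 109 (*Krt19*) to 17721 (*Spp1*). These counts are pooled over both strains, so that their part in a PSI difference was not tested.

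A frame shift usually brings a stop codon into the new frame. Where this stop lies more than about 50 nt before the last exon junction, the transcript is a target of nonsense-mediated decay (NMD), the surveillance pathway that degrades RNA with a premature stop. Exons of 2 kinds lead there: a coding exon whose skipping shifts the frame, and an exon that is normally left out and brings the stop when it is included, known as a poison exon. Many splicing factors use poison exons to limit their own level.

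The sequences below show how this looks at junctions of the genes described further on, chosen from those with large differences between the strains and from genes of secretion, lysosomes, autophagy and splicing. Each begins 4 codons before the codon that holds the new junction and is read in the frame of the upstream exon. The capitals mark the first stop codon in that frame. The first 9 were built from GENCODE M21 transcripts (GRCm38, the mm10 build) by leaving out the named coding exon. No other exon was put in its place, so transcripts that exchange it for another exon are not shown. The number of bases from the exon before the gap is 12, 13 or 14 in each.
Abcc8 without exon 33: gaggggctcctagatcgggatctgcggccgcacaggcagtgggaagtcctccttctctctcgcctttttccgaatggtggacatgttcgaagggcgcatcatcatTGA
Abcc8 without exon 34: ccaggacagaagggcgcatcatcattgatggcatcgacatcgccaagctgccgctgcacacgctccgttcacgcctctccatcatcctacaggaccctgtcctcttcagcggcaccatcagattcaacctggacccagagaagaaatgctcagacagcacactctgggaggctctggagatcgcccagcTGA
Snap25 without exon 5: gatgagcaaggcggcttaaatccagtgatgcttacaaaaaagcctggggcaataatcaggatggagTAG
Glb1 without exon 2: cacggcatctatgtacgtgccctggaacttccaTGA
Akr1c12 without exon 6: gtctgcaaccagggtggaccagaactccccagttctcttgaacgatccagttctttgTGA
Cenpf without exon 3: cagaagcagaaggtgTAA
Herc6 without exon 5: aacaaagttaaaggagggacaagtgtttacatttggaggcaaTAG
Prkdc without exon 8: tccatggaagaagatTGA
Alg6 without exon 5: ttatgtgcatatgtttcttgctgcTGA

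In *Cenpf* and *Prkdc* the stop was the codon right after the one at the junction, and in *Alg6* it came 4 codons after it. The *Abcc8* transcript without exon 34 ran the longest of these before its stop, for 59 codons. When both *Abcc8* exons are left out together, the junction of exon 32 with exon 35 restores the frame, and 70 codons are lost without a new stop. The first 43 bases across that junction, of which 13 belong to exon 32, are shown for comparison with the transcripts above.
Abcc8 without exons 33 and 34: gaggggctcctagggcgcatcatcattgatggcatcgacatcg

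The next set shows exons that bring the stop when they are added to an annotated coding transcript. These junctions were built by computation, and an annotated transcript need not hold them. The exons of *Rbm39* and *Arl15* are part of an annotated NMD transcript, and those of *Hhat*, *Zfp618*, *Zfp932* and *Atg7* are not. Each line starts in the exon before the inserted one. In *Atg7* the stop lies behind the 53 nt exon, in the exon that follows, and in the others within the inserted exon.
Rbm39 with the 73 nt exon: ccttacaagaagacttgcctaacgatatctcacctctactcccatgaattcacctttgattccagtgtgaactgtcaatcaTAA
Arl15 with the 151 nt exon: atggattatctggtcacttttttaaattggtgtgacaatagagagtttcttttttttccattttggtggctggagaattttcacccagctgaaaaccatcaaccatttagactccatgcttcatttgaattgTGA
Hhat with the 91 nt exon: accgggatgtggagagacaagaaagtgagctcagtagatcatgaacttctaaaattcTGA
Zfp618 with the 92 nt exon: gcagctccgcagctgtgtTGA
Zfp932 with the 100 nt exon: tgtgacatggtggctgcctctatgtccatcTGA
Atg7 with the 53 nt exon: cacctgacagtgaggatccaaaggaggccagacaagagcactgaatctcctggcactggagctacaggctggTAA

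In NZO islets, the frame-shifting exons were more often less included than more included. The PSI differed by over 0.1 between the strains in 735 exons of 620 genes, which is 17.0% of the 4318 exons. Of these, 492 were lower and 243 higher in NZO islets. Over all tested cassette exons, 1.48% differed by over 0.1, with 0.993% lower and 0.485% higher in NZO islets. This background is low in part by construction, since an exon with a mean PSI close to 1 or 0 has no room for such a difference. Frame-preserving exons within the same PSI limits are the closer comparison, and 19.0% of them differed by over 0.1. The share lower in NZO islets was 66.9% for the frame-shifting exons (95% exact Clopper-Pearson interval 63.4 to 70.3), 63.9% for the frame-preserving ones (60.1 to 67.6) and 67.2% over all cassette exons. The intervals cover counting error only, and exons of 1 gene are not independent.

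The typical difference was small. The median PSI difference (NZO minus B6-ob/ob) was -0.0122, with 59.9% of the exons below 0, beside -0.0134 for the frame-preserving exons and -0.00267 for all cassette exons. The median absolute difference was 0.0343, and 263 exons passed 0.2 and 36 passed 0.5. Most of the exons were close to the upper limit, with a median mean PSI of 0.880 and 72.6% above 0.8. A mean PSI below 0.5 was seen in 603 exons, beside 725 of the fewer frame-preserving exons.

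**Figure D1:**
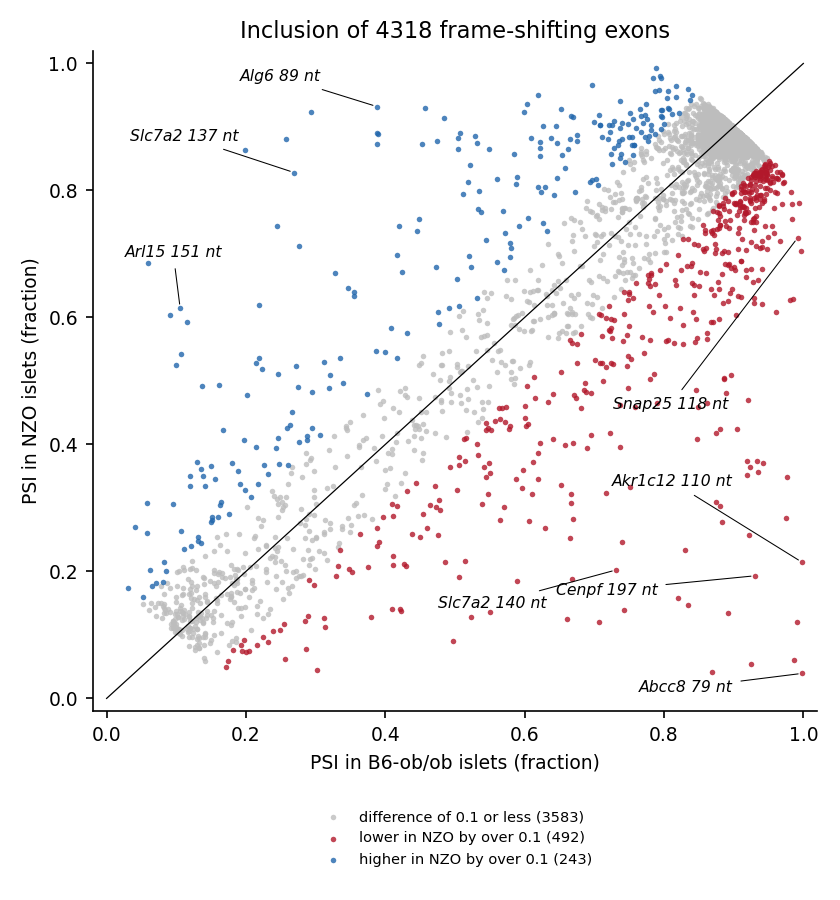
PSI in NZO islets (y axis) against PSI in B6-ob/ob islets (x axis) for the 4318 frame-shifting exons, with 1 point per exon and 1 pooled value per strain. The 492 exons that were lower in NZO islets by over 0.1 lie below the diagonal, the 243 higher ones above it, and the empty corners follow from the limits on the mean PSI.

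How many exons of a gene fell within the PSI limits varied with its level. In genes with a mean normalized count under 100, 37.2% of the frame-shifting exons had intermediate inclusion, in genes with 100 to 1000 counts 6.49%, and in genes with 1000 or more only 1.73%. Of the 1742 exons from the lowest genes, 93.4% had a mean PSI above 0.8, and 6.60% differed by over 0.1 between the strains. *Atp8b5*, a phospholipid flippase with a count of 109, lies just above this range and looks alike: 7 of its 8 exons had a PSI between 0.865 and 0.922 in both strains. In genes with 1000 or more counts, the median mean PSI was 0.694, and 25.5% of the 592 exons differed by over 0.1. The number of reads behind each PSI was not used here, and its part in these shares was not tested. The exons named below come from genes with a count of at least 100 unless a count is given or said to be absent.

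In length and base composition the exons were close to those of nearly constant inclusion. Their median length was 118 nt (range 31 to 3236), beside 111 nt for frame-preserving exons and 121 nt for frame-shifting exons with a mean PSI above 0.9. The median GC content was 50.8%, 51.4% and 50.9% in these groups, and the last exon base was a G in 79.0%, 79.7% and 79.9%. Lengths that left a remainder of 1 or 2 bases were about as frequent (2137 and 2181 exons). The exon coordinates matched an annotated exon in 99.8%.

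For 3122 of the exons the whole exon was coding in a complete annotated transcript. Removing the exon from the transcript with the longest reading frame gave a stop more than 50 nt before the last junction in 2579 of them (82.6%), with a median of 13 codons from the junction to that stop. In the other 543 the first stop lay closer to the last junction or behind it, or the transcript ended without one. Among 2767 coding frame-preserving exons, 22 gave such a stop. A further 204 exons lay in an intron of a complete coding transcript, within the frame. Each was added to that transcript by computation, without a check that an annotated transcript joins it to these neighbours. This inclusion gave a premature stop in 197 of the 204 exons (96.6%). Of the 204, 126 were part of a transcript that the annotation already classes as an NMD target. These inserted exons had a median PSI of 0.216 (NZO) and 0.215 (B6-ob/ob), whereas the coding exons were at 0.875 and 0.886. The remaining exons were untranslated (324), partly coding (265), in noncoding genes (264), in noncoding transcripts of coding genes (87), coding in an incomplete transcript (42) or without an exact annotated exon (10).

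The direction of the strain difference varied between these classes. Of the coding exons whose skipping gives a premature stop, 336 differed by over 0.1, and 248 of them (73.8%) were lower in NZO islets. Of the inserted exons whose inclusion gives one, 55 differed, and 22 were lower and 33 higher. Inserted frame-preserving exons were 19 lower and 23 higher. Over both classes of frame-shifting exons, the form with the premature stop had the larger share in the NZO strain, relative to B6-ob/ob, in 281 of 391 exons (71.9%), and in 235 of 319 (73.7%) from genes with a count of at least 100. Each exon was followed alone in this count, which thus includes neighbours such as *Abcc8* exons 33 and 34 whose joint skipping keeps the frame. Coding exons with no premature stop on skipping had a like share lower in NZO islets, with 56 of 78. Untranslated exons differed most often, in 31.2%, with 61 lower and 40 higher. Frame-preserving coding exons were lower in 319 of 474 (67.3%). The PSI is a ratio within a gene's transcripts as sequenced, so that RNA already removed by decay is not counted in it.

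**Figure D2:**
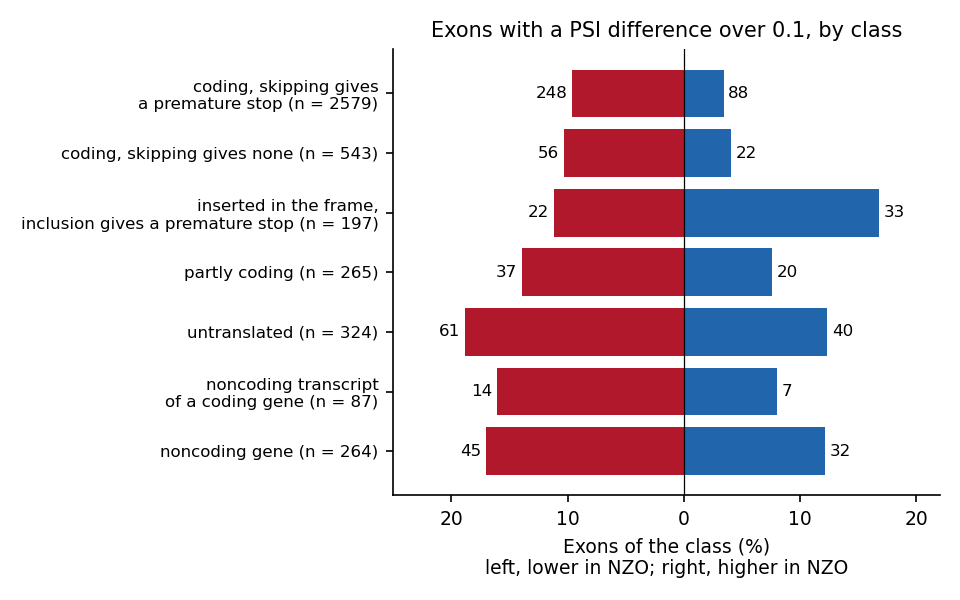
Share of the exons of each class (x axis, percent) that were lower in NZO islets by over 0.1 (left of 0) or higher (right of 0), with the number of exons at each bar. Among exons whose inclusion gives a premature stop, 33 were higher and 22 lower, whereas 248 lower stood against 88 higher among coding exons whose skipping gives one.

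The largest differences among coding exons were seen in *Abcc8*, which encodes the sulfonylurea receptor, a subunit of the beta cell potassium channel that closes when glucose is metabolised. Exon 34 (79 nt, chr7:46107238-46107316, minus strand) was at a PSI of 0.0394 in NZO versus 0.999 in B6-ob/ob islets. Exon 33 (131 nt, chr7:46108084-46108214) had 0.0601 and 0.986. In NZO islets both exons were thus absent from most transcripts, and in B6-ob/ob islets present in nearly all. The mean normalized count of the gene was 41573.

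*Akr1c12*, a member of the aldo-keto reductase family, followed with exon 6 (110 nt) at 0.215 in NZO versus 0.998 in B6-ob/ob islets. *Cenpf*, a kinetochore protein, had exon 3 at 0.193 and 0.931. *Arhgap44*, a GTPase activating protein, had a partly coding 52 nt exon at 0.285 and 0.975. These 3 exons were nearly constant in B6-ob/ob islets and mostly left out in NZO islets. *Herc6*, an interferon-inducible HECT domain protein, had exon 5 at 0.349 and 0.977. *Prkdc*, the catalytic subunit of the DNA-dependent protein kinase, had exon 8 at 0.357 and 0.934. *Dclre1c*, the Artemis nuclease that acts with this kinase in end joining, had exon 5 at 0.374 and 0.934. In these 3 genes the exon was still part of more than 0.3 of the NZO transcripts. *Bora*, an activator of Aurora A in mitosis, had exon 4 at 0.246 and 0.740, and *Zfp560*, a zinc finger gene, exon 6 at 0.418 and 0.874. *Slc7a2*, a transporter of cationic amino acids, is in both lists and is described with the exchange exons below.

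In the other direction, *Alg6*, a glucosyltransferase of the N-glycosylation pathway, had exon 5 (89 nt) at 0.932 in NZO versus 0.388 in B6-ob/ob islets. *Itgb3bp* (CENP-R), a centromere protein, had exon 4 at 0.744 and 0.245. *Atp8b5* had exon 13 at 0.891 and 0.507. These exons were the main form in NZO islets and were less included in B6-ob/ob islets. *Cc2d2b* had exon 15 at 0.865 and 0.504. *Trpm4*, a calcium-activated cation channel of beta cells, had exon 3 at 0.886 and 0.529. *H2-T24*, a class I histocompatibility gene, had exon 5 at 0.950 and 0.619, where related class I genes could share reads. *Gon4l* had exon 9 at 0.840 and 0.521, *Gpr137* a partly coding exon of 425 nt at 0.528 and 0.214, and *Ttc23* one of 200 nt at 0.754 and 0.448. Among the 10 exons of each direction, the smallest difference was 0.31 for the higher and -0.46 for the lower ones.

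**Figure D3:**
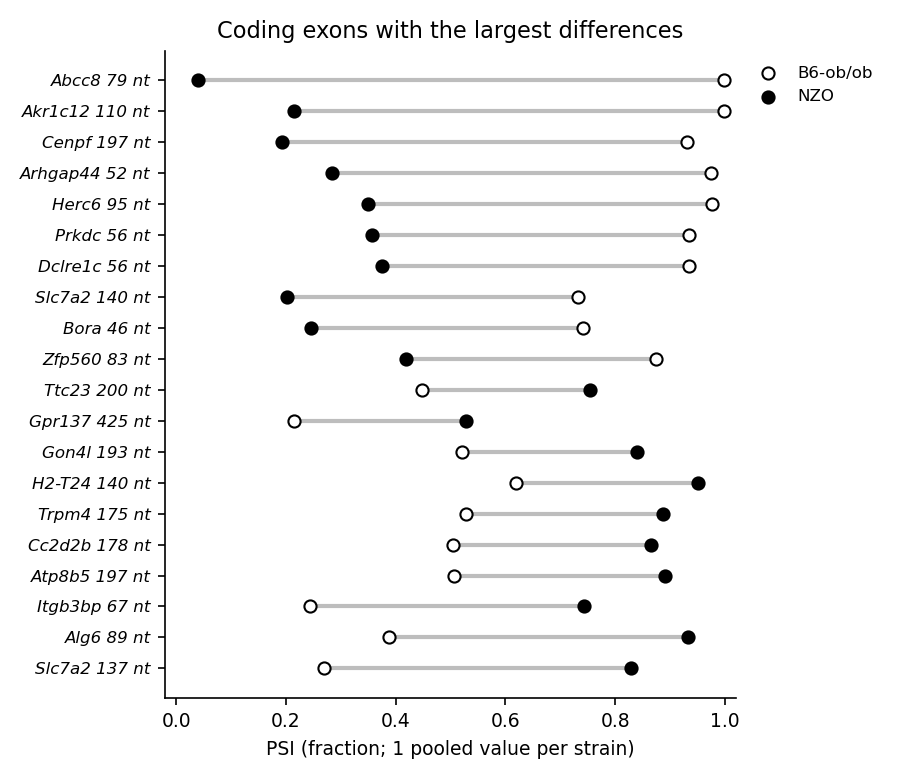
PSI (x axis) in B6-ob/ob (open circles) and NZO islets (filled circles) for the 10 coding or partly coding exons with the largest difference in each direction, 1 per gene, from genes with a mean count of 100 or more. In the upper 10 exons the NZO value is the lower one, with *Abcc8* spanning nearly the whole axis, and in the lower 10 it is the higher one.

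Inserted exons with a premature stop, as computed above, gave 5 large differences. The exons of *Malt1* and *Arl15* are part of an annotated NMD transcript. Those of *Hhat*, *Zfp932* and *Zfp618* are not, and their stop rests on the computed insertion alone. *Hhat*, the acyltransferase that palmitoylates Hedgehog proteins, had its 91 nt exon at 0.120 in NZO versus 0.707 in B6-ob/ob islets. *Zfp932* had a 100 nt exon at 0.189 and 0.668. Both were thus lower in NZO islets. The other 3 were higher: *Malt1*, a paracaspase of NF-kappa B signaling, with 79 nt at 0.605 and 0.0909, *Arl15*, a small GTPase whose human counterpart is linked to adiponectin, with 151 nt at 0.615 and 0.106, and *Zfp618* with 92 nt at 0.891 and 0.388. The stop in the *Arl15* transcript with this exon came after 40 codons, as printed above. An exon of high PSI in this class is held by most transcripts at that exon in that strain, although the longest annotated frame lacks it. The PSI does not show whether those transcripts use the start codon and upstream exons of that frame.

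Some frame-shifting exons are neighbours in a transcript. Of the exons, 753 pairs were consecutive in an annotated transcript, and in 407 pairs (54.1%) the lengths added up to a multiple of 3. Leaving out both exons of such a pair restores the frame: of 320 pairs that are coding in 1 complete transcript, each exon alone gave a premature stop in 283, and both together kept the annotated stop in 319. In the 258 coding pairs with another summed length, both together gave a premature stop in 218. The PSI of each exon is given alone, so that joint skipping in 1 transcript is not measured by it. The exons of a pair had a median gap of 0.0164 (NZO) and 0.0143 (B6-ob/ob) where the sum is a multiple of 3, and of 0.0169 and 0.0159 elsewhere. With 72.6% of all 4318 exons above 0.8, small gaps are in part set by the PSI limits. Both exons differed by over 0.1 between the strains in 35 pairs with a multiple of 3, in 33 of them in the same direction, and in 32 of the other pairs, in 27 of them in the same direction. Of the pairs with at least 1 such exon, both differed in 42.2% where the sum is a multiple of 3 and in 38.1% elsewhere.

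*Abcc8* exons 33 and 34 add up to 210 nt, or 70 codons. For this pair the paper reports splice-specific RT-PCR in a separate group of mice. In NZO islets it found only the form that lacks both exons. *Prkdc* exons 8 and 9 add up to 87 nt, with exon 9 (31 nt) at 0.351 in NZO versus 0.920 in B6-ob/ob islets, close to the values of exon 8. The next exon, exon 10 (158 nt), was at 0.621 and 0.940. In *Cux1*, a homeodomain transcription factor, exons 18 (836 nt) and 19 (166 nt) add up to 334 codons and had 0.308 and 0.283 in NZO and 0.666 and 0.670 in B6-ob/ob islets. *Pknox2*, a further homeodomain factor, had exons 8 and 9 at 0.561 and 0.568 against 0.844 and 0.848. *Ttll13*, a tubulin glutamylase with a mean count of only 85, had exons 9 and 10 at 0.364 and 0.370 against 0.923 and 0.942. In each of these genes the 2 exons had nearly 1 value within a strain. *Rexo5* exons 3 and 4, *Pisd* (phosphatidylserine decarboxylase of mitochondria), *Mroh7* and *Mrvi1* complete the set with a multiple of 3 and differences over 0.2 in 1 direction.

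*Alg6* showed a run of 3 exons. Exons 5, 6 and 7 (89, 83 and 65 nt) were at 0.932, 0.873 and 0.889 in NZO islets and at 0.388, 0.388 and 0.389 in B6-ob/ob islets. No 2 neighbours of the run add up to a multiple of 3, but all 3 together do, with 237 nt or 79 codons, and leaving out the 3 exons keeps the annotated stop. The *Itgb3bp* exons 3 and 4 (136 and 67 nt) had 0.713 and 0.744 against 0.276 and 0.245, and *Abcd4*, a lysosomal transporter for vitamin B12, had exons 12 and 13 at 0.599 and 0.511 against 0.809 and 0.786. These pairs shift the frame together as well as alone. *Phldb2* and the noncoding gene *Gm26782*, which has no mean count in the gene table, had pairs of the same kind outside coding transcripts. *Cc2d2b* and *Relch* were the genes in which both neighbours differed by over 0.2 in opposite directions, with the *Relch* exons of 83 nt each at 0.530 and 0.481 in NZO against 0.312 and 0.695 in B6-ob/ob islets.

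**Figure D4:**
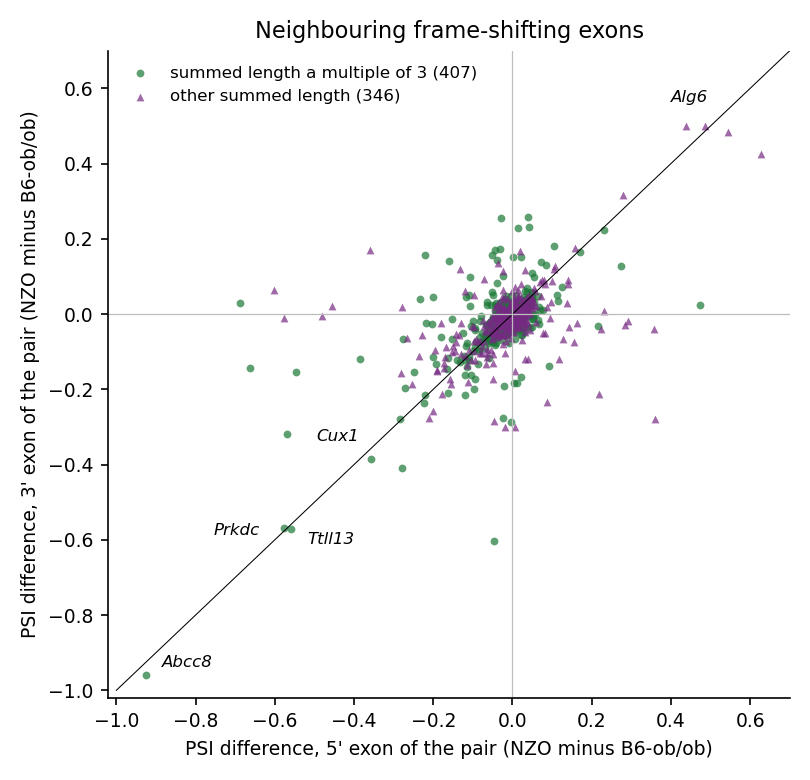
PSI difference (NZO minus B6-ob/ob) of the 3′ exon of each neighbouring pair (y axis) against that of its 5′ exon (x axis), with 407 pairs whose summed length is a multiple of 3 (circles) and 346 others (triangles). The *Abcc8* pair lies at the lower left, *Prkdc* and *Ttll13* near the diagonal, and the *Alg6* pairs at the upper right.

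Some frame-shifting exons are not skipped but exchanged for another exon of a matching length. After the PSI values had been seen, pairs were collected that have the same flanking exons in the annotation and never occur in 1 transcript. Both exons were tested in 48 pairs. In 31 pairs the lengths differed by a multiple of 3, so that the exchange keeps the frame, and in 24 of these the PSI values summed to between 0.8 and 1.2 in both strains. Those 24 pairs were kept, and the sum was thus part of their choice. They held 40 of the 4318 exons, and 33 of these were counted above as giving a premature stop on skipping, although these transcripts hold the partner exon in its place. In *Tusc3* and *Wdfy1* both exons have 1 and the same sequence, so that reads cannot be assigned and their PSI values are uncertain. Over the 11 pairs of equal length, the identity of the exons ranged from 51.3% to 100%, with a median of 71.7%.

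The exchange exons of *Slc7a2* and *Tpm1*, the pairs with the largest strain difference, and of the beta cell channel gene *Cacna1d* are printed with the bases that differ between the partners, or have no counterpart in an alignment, in capitals. Both are on chromosome 8, plus strand, for *Slc7a2* (chr8:40908056-40908195 and chr8:40908398-40908534). The *Tpm1* exons are chr9:67031951-67032026 and chr9:67032466-67032541, minus strand, and those of *Cacna1d* chr14:30171296-30171399 and chr14:30171956-30172059, minus strand.
Slc7a2 140 nt: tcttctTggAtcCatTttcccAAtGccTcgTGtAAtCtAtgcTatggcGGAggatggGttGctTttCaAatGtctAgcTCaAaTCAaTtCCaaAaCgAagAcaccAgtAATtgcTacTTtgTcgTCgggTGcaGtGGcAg
Slc7a2 137 nt: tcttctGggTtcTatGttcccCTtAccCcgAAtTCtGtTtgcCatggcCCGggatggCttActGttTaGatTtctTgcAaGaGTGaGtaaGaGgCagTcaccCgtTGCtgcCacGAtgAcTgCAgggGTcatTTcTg
Tpm1 lower coordinate: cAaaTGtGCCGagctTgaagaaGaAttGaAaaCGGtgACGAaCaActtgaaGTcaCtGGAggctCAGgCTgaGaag
Tpm1 higher coordinate: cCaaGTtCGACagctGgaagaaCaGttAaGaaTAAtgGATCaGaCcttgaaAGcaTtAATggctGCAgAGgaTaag
Cacna1d lower coordinate: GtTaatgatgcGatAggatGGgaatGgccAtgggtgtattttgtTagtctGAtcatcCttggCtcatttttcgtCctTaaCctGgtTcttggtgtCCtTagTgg
Cacna1d higher coordinate: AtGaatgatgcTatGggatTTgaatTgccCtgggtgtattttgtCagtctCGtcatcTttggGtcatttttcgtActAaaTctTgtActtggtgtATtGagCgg

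The *Slc7a2* exons share 86 aligned bases and changed places between the strains: the 140 nt exon was at 0.202 in NZO versus 0.731 in B6-ob/ob islets, and the 137 nt exon at 0.828 and 0.269. *Tpm1*, which encodes the actin-binding protein tropomyosin, had the exon at the lower coordinate at 0.509 and 0.321 and its partner at 0.497 and 0.687. *Dock9*, an exchange factor for Cdc42, had its 44 nt exon at 0.338 and 0.192 and its 68 nt exon at 0.732 and 0.869. *Dnm2*, the dynamin that cuts endocytic vesicles from the membrane, had its 139 nt exons at 0.631 and 0.407 in NZO and 0.755 and 0.288 in B6-ob/ob islets. In these 4 genes both exons differed by over 0.1, and in opposite directions. *Cacna1d*, an L-type calcium channel of beta cells, was at 0.771 and 0.204 against 0.885 and 0.119. *Rab6a*, a GTPase of the Golgi, stayed below the limit with 0.159 and 0.841 against 0.0997 and 0.902. *H2afy*, the histone variant macroH2A, *Ogdh*, the dehydrogenase for 2-oxoglutarate, and *Tcf3*, a transcription factor, differed by 0.05 or less. Of the 24 pairs, 6 held an exon that differed by over 0.1.

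**Figure D5:**
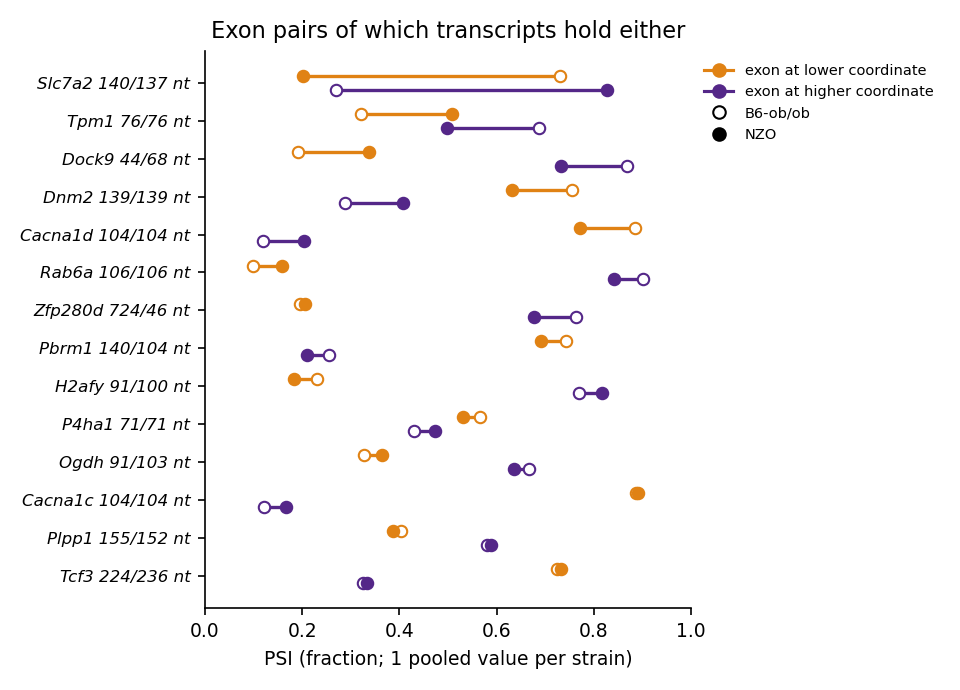
PSI (x axis) of both exons of 14 exchange pairs in B6-ob/ob (open) and NZO islets (filled), with the exon at the lower coordinate in orange and its partner in purple. The *Slc7a2* exons cross over between the strains, *Tpm1* meets near 0.5 in NZO islets, and the pairs at the bottom lie nearly at 1 place in both.

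Genes of insulin secretion and exocytosis held 25 frame-shifting exons in 17 genes, of which 10 in 8 genes differed by over 0.1 (40%, beside 17.0% of all 4318), 9 of them lower in NZO islets (beside 66.9% of all that differed). *Abcc8* and *Erc1* count with 2 exons each. The median difference of the 25 exons was -0.0353, beside -0.0122 for all 4318. The share of 17.0% takes in genes of all levels. It was 6.60% for genes with counts under 100, 22.6% at 100 to 1000 and 25.5% at 1000 or more. None of the gene lists was matched to all exons by level, and the part of level was not tested. Next to *Abcc8*, *Snap25*, a SNARE protein of the plasma membrane, had exon 5 (118 nt, chr2:136770057-136770174) at 0.726 in NZO versus 0.992 in B6-ob/ob islets. The PSI does not show whether *Snap25* transcripts without this exon hold another exon in its place, and this was not tested. Further exons of this list, named after their values were seen, were in *Exph5* (Slac2-b) and in *Rims2*, *Erc1* and *Erc2*, which encode proteins of the release site. *Exph5* exon 3 was at 0.674 and 0.902, and a 68 nt exon of *Rims2* at 0.721 and 0.941. The *Erc1* exons of 139 and 67 nt were at 0.269 and 0.618 against 0.460 and 0.778, and that of *Erc2* (67 nt) at 0.364 against 0.492. The exon that was higher in NZO islets was in the kinase gene *Camk2d*, with 0.697 against 0.520.

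Of 24 genes that the study names, 11 had 18 frame-shifting exons. Of these exons, 11 differed (61.1%, beside 17.0% of all 4318), with 8 lower and 3 higher. The study chose these genes with these samples, so that the count is no independent evidence. *Atg7*, an enzyme of autophagosome formation, had its 53 nt inserted exon at 0.270 in NZO versus 0.0407 in B6-ob/ob islets and a 121 nt exon at 0.203 and 0.189. *Tpcn2*, a cation channel of lysosomes, had exon 17 at 0.566 and 0.862 and a 119 nt inserted exon at 0.0868 and 0.148. *Zfp945* had its 121 nt exon at 0.138 and 0.423. *Ptk2*, the focal adhesion kinase, had exons of 155, 122 and 104 nt at 0.384, 0.327 and 0.288 against 0.534, 0.431 and 0.370. *Myt1l* had an untranslated 107 nt exon at 0.755 and 0.984. The exon of *Glis3*, a transcription factor of beta cells, was at 0.578 and 0.609, that of *Fbrsl1* at 0.799 and 0.890, and *Pbx4*, with a mean count of 30, had 3 exons between 0.748 and 0.922.

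Beta cell identity genes had 8 such exons, and 3 differed by over 0.1 (37.5%, beside 17.0% of all 4318), none of them coding. This list, too, was not matched to all exons by level. Besides *Myt1l*, an untranslated 73 nt exon of *St18* was at 0.0973 in NZO versus 0.224 in B6-ob/ob islets. A 137 nt exon of *Pax6*, the homeodomain factor of endocrine cells, was at 0.317 and 0.208, and the intron of 162 nt beside it at 0.317 and 0.207.

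In DNA repair genes, 10 of 65 exons in 30 genes differed (15.4%, beside 17.0% of all 4318), and these 10 were all lower in NZO islets, beside 66.9% of all that differed, with a median difference of -0.0428 over the 65. Besides *Prkdc* and *Dclre1c*, with its exon 3 at 0.503 and 0.886, these were in *Usp1*, *Polh*, *Fancc* and *Fancl*. *Usp1*, the deubiquitinase of the Fanconi anemia pathway, had a 220 nt exon at 0.558 and 0.828. *Fancl*, the ubiquitin ligase of that pathway, had its exons of 59 and 61 nt at 0.816 and 0.817 against 0.948 and 0.945. The 10 exons came from 6 genes and are not independent.

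In the lists that follow, the shares over all 4318 exons are again 17.0% that differed and 66.9% of these lower. In ubiquitin-mediated proteolysis, 7 of 29 exons differed, of which 6 were lower in NZO islets, among them *Herc6*, while the median difference of the 29 was 0.0253. In cell cycle genes, 4 of 40 exons were lower and 2 higher, the latter both in *Itgb3bp*. For the 35 exons of centrosome and cilium genes the numbers were 7 and 2, with *Sass6* exon 16 at 0.504 and 0.886, *Sdccag8* exon 3 at 0.721 and 0.966 and an inserted exon of *Cep112* (mean count 64) at 0.125 and 0.661. For the 30 of chromatin modifiers they were 5 and 2, with *Nsd2* at 0.671 and 0.424, *Dot1l* at 0.679 and 0.472 and *Setd4* at 0.750 and 0.925. Endocytosis genes had 20 exons with 4 lower and 3 higher, including *Psd4* (230 nt) at 0.646 and 0.346, the endocytic adaptor *Numb* at 0.400 and 0.658, and *Ap1g2* exon 6 at 0.560 and 0.815. Interferon and antigen presentation genes had 18, of which 5 were lower and 3 higher, with *Trim30d* (mean count 64) at 0.913 and 0.485. Of 10 in lysosome and autophagy genes 2 were lower, *Tpcn2* and *Glb1*, and 2 higher. *Glb1*, the lysosomal beta-galactosidase, had exon 2 (170 nt) at 0.704 and 0.997.

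Genes of the mitochondrial ribosome and oxidative metabolism had few such exons: 4 of 111 tested genes (3.60%) held one, beside 20.7% of all genes with a tested cassette exon. The share of frame-shifting exons within the PSI limits fell from 37.2% at counts under 100 to 1.73% at 1000 or more. The genes of this list were not matched to others by level, and the part of level was not tested. Their only differences were 2 entries for 1 exon of *Nnt*, the transhydrogenase of which C57BL/6J mice carry a known deletion, at 0.941 and 0.736 and at 0.993 and 0.789 under 2 gene identifiers. An untranslated exon of *Ndufs1* was at 0.252 and 0.211.

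Genes of splicing factors held 7 inserted exons with a premature stop in 6 genes, of which 4 were lower in NZO islets by over 0.1 and none higher. These 4 were in *Luc7l2*, its relative *Luc7l* and *Rbm39*. Among all 197 inserted exons with a premature stop, 22 were lower and 33 higher. SR and hnRNP genes held 5 frame-shifting exons. An untranslated exon of 104 nt in *Srsf2* was at 0.413 in NZO versus 0.287 in B6-ob/ob islets. It is also part of an annotated NMD transcript and was not counted among the 7. The intron of 686 nt beside it was at 0.392 and 0.264. The other 4 differed by less than 0.1: *Ptbp2* exon 10 (34 nt) was at 0.264 and 0.290, *Ptbp3* (34 nt) at 0.115 and 0.127, *Hnrnpr* at 0.614 and 0.664 and *Hnrnpa2b1* at 0.831 and 0.822. Among other splicing regulators, 5 of 22 exons were lower and 1 higher by over 0.1. *Luc7l2*, of the U1 particle, had inserted exons of 68 and 71 nt at 0.198 and 0.225 in NZO against 0.353 and 0.410 in B6-ob/ob islets. Its relative *Luc7l* had an inserted exon of 71 nt at 0.506 and 0.614, and *Rbm39* one of 73 nt at 0.374 and 0.514. In both *Luc7l2* exons the stop lies behind the exon, 62 and 63 codons after the junction. *U2af1*, of the 3′ splice site factor U2AF, had 2 alternative exons of 67 nt at 0.803 and 0.286 against 0.868 and 0.159. *Rnps1*, a component of the exon junction complex, was the only NMD factor with such an exon, with 181 nt at 0.259 and 0.364.

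An intron next to the exon was tested for 239 of the exons, and 53 of these exons differed by over 0.1 between the strains. In 19 of the 53, an adjacent intron differed by over 0.1 as well, beside 60 of all 239 and 18 of 41 such frame-preserving exons. The direction was the same in *Pax6*, *Srsf2* and *Dot1l*, among others. It was opposite in *Adgrl2*, *BC024139* (mean count 26), *Pak6* and *Gpr137*. The tested stretch beside the *Gpr137* exon is only 14 nt long. In *Gpr137b*, the exon of 245 nt was at 0.919 in NZO versus 0.707 in B6-ob/ob islets and the adjacent intron at 0.940 and 0.695. In *Gpr137b*, *Pax6* and *Srsf2*, inclusion of the exon and retention of the intron beside it cannot be told apart from the PSI alone.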

How the data were processed

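RNA of islets from 5 NZO and 5 B6-ob/ob mice was sequenced by the authors (mapped to strains from the sample labels). The submitters' notes and the methods name Salmon, DESeq2, Whippet, custom Python scripts and the Ensembl mm10 annotation, with versions not given in the sources used here. In the deposited splicing table, the PSI is a fraction for each strain, its mice pooled by Whippet. In the deposited gene table, the authors give 1 mean signal per gene over all libraries, made from counts divided by size factors in DESeq2. The columns of fold changes, adjusted p-values, ∆PSI and probabilities, and the sheets of significant genes and events, are the authors' comparisons and were not used. The depth per sample is unknown.

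The PSI difference was computed as NZO minus B6-ob/ob, with limits of 0.1 and 0.2. Exons were placed by exact coordinates on GENCODE M21 (GRCm38) with pandas, and frames were followed in transcript sequences, from which all printed sequence comes. Annotated stops were found again in 28284 of 28317 complete coding transcripts, and only those were used. The frame code recovered the known stop in 500 of 500 simulated transcripts. Splice site scores, which need intron sequence, were not computed. An exon of 2 gene identifiers counts as 2 (4310 different coordinates). Junctions that exist only in NZO mice are not part of the annotation read here.

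The exons and the 15 gene lists were chosen with earlier results of these data known. Named are the 10 coding exons with the largest difference in each direction at a mean count of at least 100 (1 per gene), up to 3 per list, all of SR, hnRNP and NMD genes, 5 inserted exons with a premature stop, neighbours over 0.2, genes the study names, and exons at the limits. Exact intervals cover counting error only. 1 exon that the rule names is not reported here.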

Additional observations from a re-analysis of the deposited data

How the results depend on the processing

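With the mean PSI limited to 0.2 to 0.8, 452 exons differed by over 0.1, the share lower in NZO islets was 63.7% and the median difference -0.0320. With a limit of 0.2 on the difference, 263 exons differed, 64.6% of them lower. Genes with a mean count of at least 100 gave 552 exons and a median of -0.0190, and exons that overlap coding sequence gave 490, of which 72.4% were lower. With 1 exon per gene there were 580 exons with 63.6% lower, and with 1 row per coordinate 734. Under all of these, more exons were lower than higher and the median was below 0. Counting any stop before the last exon, skipping gave a stop in 85.3% of the coding exons and inclusion in 99.5% of the inserted exons, and a premature stop in every transcript that holds the exon was found in 80.0%. The mice were pooled, so no mouse could be left out, and no paired analysis was possible because the columns carry no replicate numbers. Splice site scores were not run.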

Other observations

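Zinc finger genes named Zfp with a number were looked at after their values had been seen. They held 110 frame-shifting exons in 89 genes, and 43 of the exons (39.1%) differed by over 0.1, with 28 lower and 15 higher in NZO islets, beside 17.0% of all 4318. *Zfp949* had an untranslated exon of 146 nt at 0.0544 in NZO versus 0.924 in B6-ob/ob islets, and *Zfp354a* a partly coding exon of 256 nt at 0.136 and 0.550. Copies of such genes can share reads, and the part of this in their PSI values was not tested. The median mean count over the 110 exons was 275. Of all frame-shifting exons of intermediate inclusion in genes with 100 to 1000 counts, 22.6% differed. The part of level was not tested either.

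The *Alg6* and *Itgb3bp* exons, all higher in NZO islets, lie 56.3 kb apart on chromosome 4. The chromosome was looked at because of these genes: 24.4% of its 258 exons differed by over 0.1, beside 17.0% of all 4318. The *Alg6* and *Itgb3bp* exons are part of both shares, so that the share of the chromosome is no independent evidence. Among the other autosomes and X, the share was lowest on chromosome 8 (29 of 236) and highest on chromosome 10 (44 of 210). Among genes at a lower level, *Nnat* (neuronatin, mean count 98.0) had its 88 nt coding exon at 0.493 in NZO versus 0.161 in B6-ob/ob islets, next to an intron of 187 nt at 0.493 and 0.343. An untranslated exon of *Lipo3* (143 nt) was at 0.120 and 0.991.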
